A study of Mus musculus with 12 samples.

Results

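The 32 genes described here are 17 genes of mitosis, 13 genes of DNA replication and 2 genes of other nuclear proteins, chosen by symbol from the 28694 genes in the expression matrices, and all 32 were found. The mitosis genes are Mki67, Top2a, Cdk1, Ccnb1, Ccnb2, Ccna2, Birc5, Aurka, Aurkb, Bub1, Tpx2, Cenpa, Cenpe, Cenpf, Ube2c, Plk1 and Cdca3. The replication genes are Mcm2, Mcm3, Mcm4, Mcm5, Mcm6, Mcm7, Pcna, Tyms, Rrm2, Gins2, Ung, Ccne1 and Ccne2. The other pair is H2afx, a histone variant, and Lmnb1, lamin B1 of the nuclear envelope. They were measured by droplet RNA sequencing from the 5′ end of transcripts in leukocytes of the brain meninges of C57Bl/6j mice at postnatal day 4. There were 2 libraries from mice 6 h after neonatal hypoxia-ischemia (HI), an injury that combines low oxygen with reduced blood flow, and 2 from naive mice of the same strain and age. Each library held cells pooled from 12 mice, 6 males and 6 females. Libraries were made in separate runs, each with an HI and a naive sample, the labels do not tie a library number to a run, and no sham-operated group was among the samples. HI therefore cannot be told apart from the handling that went with it.

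A cell that divides first copies its DNA and then separates the copies, and different genes serve the 2 steps. Replication genes encode the subunits of the MCM helicase (Mcm2 to Mcm7), start origins (Gins2), supply nucleotides (Tyms and Rrm2), clamp the polymerase (Pcna), remove uracil (Ung) and drive entry into S phase (Ccne1 and Ccne2, the E cyclins). Mitosis genes drive entry into mitosis (Cdk1 with its cyclins Ccnb1, Ccnb2 and Ccna2, and the trigger of entry Cdca3), untangle and coat chromosomes (Top2a and Mki67), build the kinetochore and check it (Cenpa, Cenpe, Cenpf and Bub1), assemble the spindle (Aurka, Plk1 and Tpx2), divide the cell (Aurkb and Birc5) and mark mitotic proteins for destruction (Ube2c). In mice, microglia and macrophages of the brain borders multiply locally after birth, whereas neutrophils leave the cycle as they mature.

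The promoters are shown because they hold short sequence motifs that are known to bind regulators of mitosis and replication genes. RefSeq windows on GRCm38.p6, which run from 250 bases before to 50 bases after a gene's start, were matched by symbol for 14 of the 17 mitosis genes and 10 of the 13 replication genes (11 windows). Both strands were searched for TTTGAA, the cell cycle homology region of genes expressed late in the cycle, for CCAAT, and for GCGNGAA, a form of the E2F site. TTTGAA was in 10 of 14 mitosis windows (71.4%) and in 1 of 11 replication windows (9.09%), beside 17.9% of all 32817 windows. GCGNGAA was in 1 of 14 mitosis windows (7.14%) and in 5 of 11 replication windows (45.5%), beside 8.90% of all windows. Those 5 windows belong to 4 of the 10 replication genes, Mcm3, Mcm5, Mcm6 and Mcm7, with 2 windows for Mcm7. CCAAT was in 13 of 14 mitosis windows (92.9%) and in 8 of 11 replication windows (72.7%, 7 of 10 genes), beside 37.4% of all windows. A match is a description of the letters and not a site or a cause. The 4 windows below, for 2 genes of each group, were chosen after the search because they hold these motifs. They are printed 5′ to 3′ along the gene, with each match on either strand in capitals, and no matches overlapped.
Plk1: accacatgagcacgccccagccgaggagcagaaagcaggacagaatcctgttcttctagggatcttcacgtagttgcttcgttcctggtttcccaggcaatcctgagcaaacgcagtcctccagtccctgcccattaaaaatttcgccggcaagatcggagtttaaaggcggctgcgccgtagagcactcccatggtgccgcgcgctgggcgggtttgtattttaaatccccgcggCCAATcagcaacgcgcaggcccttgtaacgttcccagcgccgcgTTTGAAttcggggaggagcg
Top2a: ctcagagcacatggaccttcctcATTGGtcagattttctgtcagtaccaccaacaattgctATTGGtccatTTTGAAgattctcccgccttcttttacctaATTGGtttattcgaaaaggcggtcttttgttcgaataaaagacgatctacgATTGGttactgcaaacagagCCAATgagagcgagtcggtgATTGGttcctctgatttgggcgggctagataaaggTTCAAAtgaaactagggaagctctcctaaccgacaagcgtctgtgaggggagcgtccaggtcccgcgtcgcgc
Mcm3: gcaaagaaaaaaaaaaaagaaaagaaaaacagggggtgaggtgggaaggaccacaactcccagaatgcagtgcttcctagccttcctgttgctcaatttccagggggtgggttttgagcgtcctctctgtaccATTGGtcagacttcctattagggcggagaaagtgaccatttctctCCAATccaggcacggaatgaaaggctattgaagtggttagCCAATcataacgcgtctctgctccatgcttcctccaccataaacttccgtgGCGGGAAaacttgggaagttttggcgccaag
Mcm5: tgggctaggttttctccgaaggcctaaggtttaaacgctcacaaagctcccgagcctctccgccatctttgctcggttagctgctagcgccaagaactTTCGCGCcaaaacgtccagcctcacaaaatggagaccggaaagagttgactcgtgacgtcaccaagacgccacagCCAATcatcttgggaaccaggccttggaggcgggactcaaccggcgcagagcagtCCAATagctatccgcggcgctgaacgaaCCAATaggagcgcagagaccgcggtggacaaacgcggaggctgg
The Plk1 window (chr7:122159185-122159484, plus strand) holds TTTGAA and CCAAT once each. The Top2a window (chr11:99024140-99024439, minus strand) holds TTTGAA at 2 places and CCAAT at 6. The Mcm3 window (chr1:20820263-20820562, minus strand) and the Mcm5 window (chr8:75109259-75109558, plus strand) each hold GCGNGAA at 1 place and CCAAT at 3.

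After filters on quality and doublets the libraries held 4070 and 6081 HI cells and 4912 and 5662 naive cells, with medians between 9574 and 11091 UMIs (unique molecules) per cell. Any 2 libraries shared between 29 and 55 cell barcodes. Cells were gated one by one on marker genes that include no cell cycle gene, so each class name stands for cells like that type: 14985 border-associated macrophages (BAM), 2084 microglia, 946 non-classical monocytes, 258 classical monocytes, 210 B cells, 158 mature neutrophils and smaller classes, with 1401 cells left ungated. The markers of the named class were detected in the median cell at 8 of 8 for BAM, 7 of 8 for microglia, 6 of 8 for non-classical monocytes and 5 of 7 for classical monocytes. Neurons and glia (45 cells), fibroblasts (19 cells) and choroid plexus epithelium (14 cells) were also present, so the preparations were not of leukocytes alone.

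A cell was called mitotic when at least 3 of the 17 mitosis genes had a UMI, replicating when at least 3 of the 13 replication genes did, and dividing when either held, after every cell was thinned to 3000 UMIs. No cell fell below that depth. By this measure 3164 of 20725 cells (15.3%) were dividing, of which 57.4% were BAM and 23.5% were microglia. Among leukocyte classes with at least 20 cells, dividing cells were most frequent in pre-B cells, at 66.7% of 48 (95% exact Clopper-Pearson interval 51.6% to 79.6%). Gamma-delta T cells followed at 52.2% of 67 (39.7% to 64.6%), innate lymphoid cells at 37.0% of 81 (26.6% to 48.5%), microglia at 35.6% of 2084 (33.5% to 37.7%), and NK cells at 35.0% of 20 (15.4% to 59.2%). B cells stood at 31.9% of 210 (25.7% to 38.7%), conventional dendritic cells at 23.3% of 129 (16.3% to 31.5%), T cells at 18.9% of 106 (11.9% to 27.6%), immature neutrophils at 12.8% of 86 (6.56% to 21.7%) and BAM at 12.1% of 14985 (11.6% to 12.6%). The intervals of gamma-delta T cells and pre-B cells overlap, as do those of innate lymphoid cells, microglia, NK cells and B cells. The gates of innate lymphoid and gamma-delta T cells rest on markers of single cells: no cluster was named gamma-delta T cells, and the cluster of 234 cells matched to innate lymphoid cells was led by Tcrg-C1, Cxcr6, Cd163l1 and Trdv4, which include gamma-delta receptor genes. Intervals and limits here cover counting error only, and these shares pool cells over 4 libraries. Pre-B cells differed between libraries: 9 of 13 were dividing in HI library 2, 8 of 17 in naive library 1 and 15 of 17 in naive library 2. The 1 pre-B cell of HI library 1 was not called dividing. In naive library 1 gamma-delta T cells had the larger share, at 13 of 25, and in HI library 2 and naive library 2 pre-B cells did.

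The low end of the order was held by myeloid classes. Classical monocytes had 6.98% dividing cells (4.19% to 10.8%), basophils and mast cells 6.67% (1.40% to 18.3%, 3 of 45) and non-classical monocytes 0.74% (0.30% to 1.52%, 7 of 946). No mature neutrophil of 158 was called dividing, which allows a share of up to 1.90%, taking 3 counts of the total as the limit. Mature neutrophils have left the cycle, so UMIs of mitosis genes in their droplets were taken as the background. Whether free RNA was the source was not tested. Of these 158 neutrophils 7 had a UMI of 1 mitosis gene and none had more. Their median depth was 4701 UMIs, against 5682.5 in non-classical monocytes, 10473 in BAM and 11126 in microglia, before thinning. With all UMIs the dividing share was 36.2% in BAM, 55.9% in microglia and 0% in mature neutrophils. Many BAM lie near the limit of the call: 790 had 2 mitosis genes and 162 had 3, and 1238 had 2 replication genes and 502 had 3. In microglia 69 cells had 2 mitosis genes and 53 had 3.

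Dividing cells were also split by which call they met. In pre-B cells 75.0% of the dividing cells were both replicating and mitotic by the call, 15.6% were replicating only and 9.38% mitotic only. In BAM those shares were 17.1%, 54.3% and 28.5%, and in microglia 22.4%, 48.8% and 28.8%. Gamma-delta T cells were mostly replicating only (62.9% of 35 dividing cells, with 2.86% mitotic only). In immature neutrophils the 11 dividing cells were all mitotic, 4 of them also replicating, and in classical monocytes 17 of 18 were mitotic. All 7 dividing non-classical monocytes were replicating only, and 0 of 946 were mitotic, which allows up to 0.317% with 3 counts as the limit. Cells defined by a productive receptor rather than by markers gave 30.0% dividing cells of 213 with heavy and light B-cell receptor chains, and 18% of 100 with a T-cell receptor beta chain.

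**Figure D1:**
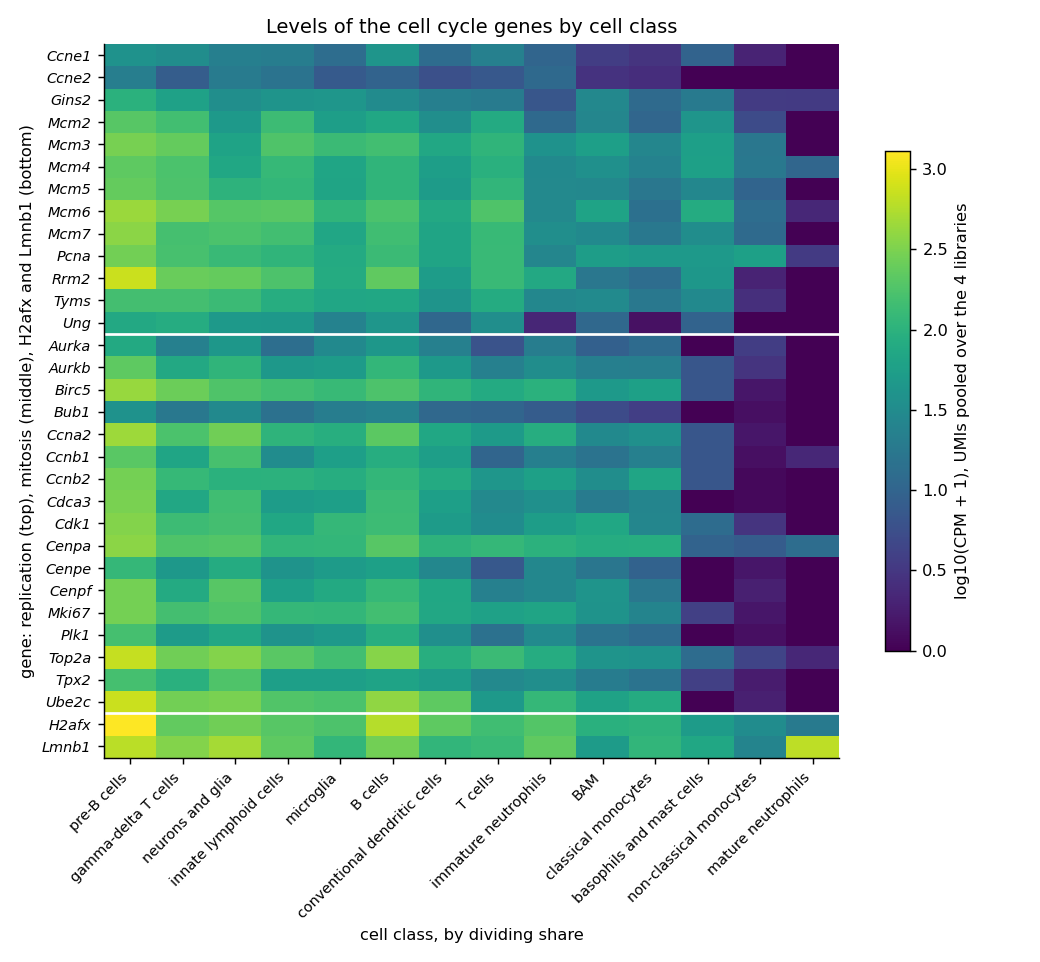
Level of each of the 32 genes (rows) in the 14 classes with at least 40 cells (columns, by falling share of dividing cells), as log10(CPM + 1) with UMIs pooled over the 4 libraries. Pre-B cells are brightest for most genes, the last columns are dark, and Lmnb1 stands out in mature neutrophils at 642 CPM.

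Levels are given as CPM, the UMIs of a gene scaled to all UMIs of the class. Summed over libraries, pre-B cells had the highest level of 16 of the 17 mitosis genes and 11 of the 13 replication genes. Mki67 was at 291 CPM in pre-B cells, 115 CPM in microglia, 39.2 CPM in BAM, 0.53 CPM in non-classical monocytes (3 UMIs) and 0 in mature neutrophils. Ccne1 was highest in B cells, at 41.1 CPM, beside 37.2 CPM in pre-B cells. Lmnb1 went against the order: it was highest in mature neutrophils, at 642 CPM (530 UMIs), beside 619 CPM in pre-B cells and 24.3 CPM in non-classical monocytes. Pcna was at 58.3 CPM in non-classical monocytes and 53.0 CPM in BAM.

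BAM, microglia and both kinds of monocytes, each above 40 cells in all libraries, were compared with edgeR's quasi-likelihood test on counts summed per library, with library as a block and Benjamini-Hochberg adjustment over all genes. All 32 genes were higher in microglia than in BAM, where 70% of all 12222 genes tested were called and 33.9% were higher. The median log2 difference was 1.56 over the mitosis genes and 1.19 over the replication genes, and -0.02 over all genes. Bub1, a spindle checkpoint kinase, had 20.1 and 20.4 CPM in HI microglia and 18.4 and 20.3 CPM in naive microglia. In BAM it had 3.6 and 3.36 CPM in HI libraries and 4.78 and 4.73 CPM in naive libraries. Every microglial value of Bub1 was above every BAM value, and the difference was 2.27 on the log2 scale (SE 0.12, edgeR adjusted p = 2.21e-07). Rrm2, a subunit of the enzyme that makes deoxynucleotides, differed by 2.37 (SE 0.12, edgeR adjusted p = 1.66e-07) and Ccne1 by 2.18 (SE 0.19, edgeR adjusted p = 6.53e-06). Ccnb1 differed by 2.00, Top2a by 1.90, Mki67 by 1.56, Mcm5 by 1.24 and Pcna by 0.56. In BAM that were not called dividing, Cdk1 was at 39.2 ± 1.68 CPM, Cenpa at 47.3 ± 7.23 CPM and Ccnb1 at 0.75 ± 0.23 CPM (SD, n = 4 libraries).

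Other genes of the cell cycle were called in the same comparison in both directions. Of 30 other replication genes 30 were higher in microglia than in BAM, led by Clspn (1.67), Hells (1.52), Uhrf1 (1.48) and Cdc45 (1.41). Of 47 other mitosis genes 45 were higher, led by Pbk (2.04), Ckap2l (1.95), Gtse1 (1.74) and Prc1 (1.72), and Pttg1, securin, was lower (-0.85). Genes that act in G1 split. E2f2 (2.45), Myc (1.5), Cdk6 (1.31) and E2f3 (0.95) were higher in microglia, whereas the D cyclins Ccnd2 (-2.81), Ccnd3 (-1.37) and Ccnd1 (-1.05) and E2f1 (-0.90) were lower. Ccnd1, which binds Cdk4 and Cdk6, had 118 and 130 CPM in HI microglia and 111 and 108 CPM in naive microglia. In BAM it had 240 and 244 CPM in HI libraries and 230 and 245 CPM in naive libraries, all above the microglial values. Of 20 genes that restrain the cycle, 7 were higher and 6 lower in microglia. The CDK inhibitors Cdkn2a (3.45) and Cdkn1a (1.44) and the kinase Pkmyt1 (1.37) were among the higher, and Cdkn1c (-1.28), Tob1 (-1.27) and Mxd4 (-1.05) among the lower. These values are log2 differences from the same edgeR fit with adjusted p under 0.05.

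Non-classical monocytes were lower than BAM for all 17 mitosis genes, for 12 of the 13 replication genes and for H2afx and Lmnb1, where 70.6% of all 11978 genes tested were called and 41.3% were lower. Pcna alone of the 32 was not called, with a log2 difference of 0.22 (SE 0.10, edgeR adjusted p = 0.061). Mki67 had 0 and 2 UMIs in HI and 0 and 1 UMI in naive libraries of these monocytes, a level 73.6 times lower than in BAM (95% counting interval 25.2 to 357). Ung had 0 UMIs and so was at least 19.1-fold lower, taking 3 counts over the class as the limit. Their G1 genes were called in both directions: Ccnd2 (4.94), E2f2 (4.95) and Ccnd3 (2.88) were higher than in BAM, and Ccnd1 (-5.74), Myc (-1.56), Cdk4 (-1.53) and Cdk6 (-1.31) lower. Of 20 genes that restrain the cycle 18 could be tested, and 9 were higher and 5 lower in the monocytes with edgeR adjusted p under 0.05. Gadd45a (3.20), Btg1 (3.09), Btg2 (2.92) and Cdkn2d (2.47) were the furthest above BAM. The lower ones included Cdkn1c (-2.78) and the CDK inhibitor Cdkn2c, which had 0 and 1 UMI in HI and 0 and 1 UMI in naive libraries of these monocytes. The inhibitory kinases of Cdk1 were lower too, with Pkmyt1 at 1 and 1 UMI in HI and 0 in naive libraries, and Wee1 at 0 in HI and 0 and 1 UMI in naive libraries. Classical monocytes differed from BAM in 10 of the 32 genes, where 46.6% of all genes tested were called. Of these, 8 were lower and 2 higher, where 26.4% and 20.2% of all 11865 genes tested were lower and higher. Mcm6 (-2.14), Mcm2 (-1.40), Gins2 (-1.24), Mcm3 (-1.10) and Mcm7 (-0.77) were lower, with Ung at 1 UMI, as were Cdk1 (-1.42) and Cenpf (-1.24). Ccnb2 (1.18) and Lmnb1 (1.15) were higher. Both of these calls were lost when HI library 1 or HI library 2 was left out. The number of genes called higher was 3 without naive library 1 and 2 without naive library 2.

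The share of dividing cells was then compared between HI and naive libraries. Microglia had 38.0% and 43.5% dividing cells in HI libraries, against 30.0% and 30.8% in naive libraries. Both HI values lay above both naive values, with means of 40.7% ± 3.9 and 30.4% ± 0.53 (SD, n = 2 each). The log2 change was 0.43, and edgeR's quasi-likelihood test over the 4 classes gave an unadjusted p of 0.016 and a Benjamini-Hochberg adjusted p of 0.063, so the difference did not pass. The same holds for their replicating share, at 26.0% and 33.8% in HI and 20.5% and 20.2% in naive libraries (log2 change 0.56, edgeR adjusted p = 0.117). The mitotic share of microglia was 20.2% and 19.1% in HI and 16.7% and 17.4% in naive libraries (log2 change 0.20, edgeR adjusted p = 0.182). With all UMIs in place of 3000 the microglial dividing share passed, at edgeR adjusted p = 0.029. With 2 libraries against 2 an exact permutation test cannot go below p = 0.33 (two-sided).

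In BAM the difference in mitotic cells had the opposite sign and did not pass. The mitotic share of BAM was 4.21% and 5.13% in HI libraries, against 6.05% and 6.51% in naive libraries, with no overlap. The log2 change was -0.41 (edgeR unadjusted p = 0.028, adjusted p = 0.085). The replicating share of BAM was 8.31% and 8.27% in HI and 7.48% and 10.3% in naive libraries, and here the HI values lay between the naive values. The dividing share was 11% and 11.5% in HI and 11.6% and 14.0% in naive libraries (log2 change -0.19, edgeR adjusted p = 0.294). None of the 11 tests of shares passed after adjustment, and 3 had an unadjusted p under 0.05. Within microglia the share taken by cells of a cluster led by Tmem119, Sparc and P2ry12, made without cell cycle genes, was 61.8% and 80.3% in HI and 69.3% and 69.7% in naive libraries. Dividing cells made up 42.9% and 46.3% of that cluster in HI and 34.0% and 32.7% in naive libraries. In the cluster led by Gpnmb, Spp1 and Csf1 they made up 27.2% and 32.7% in HI and 22.1% and 24.1% in naive libraries. In both clusters the HI libraries lay above the naive ones.

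**Figure D2:**
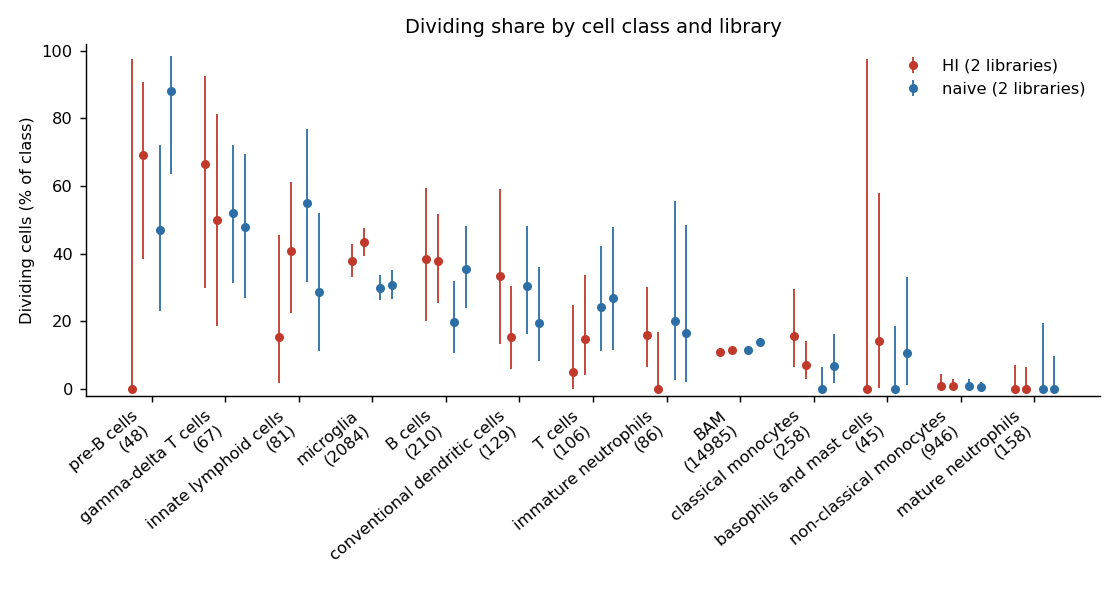
Dividing cells as a percentage of each class (cell totals in brackets) in each library, HI left and naive right, with exact 95% intervals for counting error. Microglia sit at 38.0% and 43.5% in HI and at 30.0% and 30.8% in naive libraries, and mature neutrophils sit at 0 throughout.

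**Figure D3:**
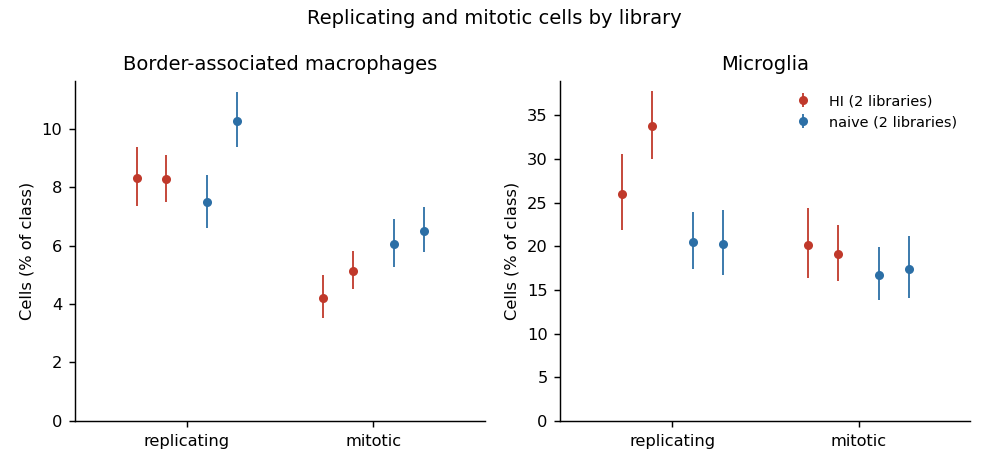
Replicating and mitotic cells as a percentage of BAM (left panel) and microglia (right panel) in each library, with exact 95% intervals for counting error and separate vertical axes. Mitotic BAM are at 4.21% and 5.13% in HI and at 6.05% and 6.51% in naive libraries, and replicating microglia at 26.0% and 33.8% in HI and at 20.5% and 20.2% in naive libraries.

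Lymphocyte classes fell below 40 cells in at least 1 library and were not tested, so their shares are given as values. T cells had 5% and 14.8% dividing cells in HI libraries (1 of 20 and 4 of 27), against 24.2% and 26.9% in naive libraries (8 of 33 and 7 of 26). B cells had 38.5% and 37.9% in HI and 19.7% and 35.4% in naive libraries, with both HI values above both naive values. Gamma-delta T cells had 66.7% and 50% in HI libraries and 52% and 47.8% in naive libraries, from at most 25 cells each. Classical monocytes had 15.6% and 7.14% dividing cells in HI libraries (7 of 45 and 7 of 98), against 0 of 55 and 4 of 60 in naive libraries (log2 change 1.45, edgeR adjusted p = 0.294). Non-classical monocytes had between 0.58% and 0.86% in every library.

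Levels of the genes in whole classes were tested gene by gene with edgeR's quasi-likelihood test and Benjamini-Hochberg adjustment over all genes of the class. A sum over a class moves with the share of dividing cells and with the level inside cells. Levels inside dividing and other cells are therefore given beside it for BAM, microglia and classical monocytes. In BAM 1 of the 32 genes was called, where 4.35% of all 13128 genes tested were, 2.45% higher and 1.9% lower. Cdca3 fell to 14.5 and 16.8 CPM in HI libraries, against 21.6 and 22.3 CPM in naive libraries, a log2 change of -0.47 (SE 0.09, edgeR adjusted p = 0.043). The other 16 mitosis genes were also lower in both HI libraries than in both naive libraries, where 30.1% of all genes tested were so placed and 23.7% the other way round, and the median log2 change of the 17 was -0.38, beside 0.00 over all genes. None of those 16 passed, although 14 of the 17 had an unadjusted p under 0.05. Mki67 had 33.0 and 37.1 CPM in HI and 40.4 and 45.4 CPM in naive BAM (log2 change -0.27, edgeR adjusted p = 0.132). Top2a had 31.9 and 37.7 CPM in HI and 41.6 and 48.3 CPM in naive BAM (log2 change -0.35, edgeR adjusted p = 0.115). Ccnb1 had 9.60 and 14.3 CPM in HI and 14.9 and 17.5 CPM in naive BAM (log2 change -0.41, edgeR adjusted p = 0.251). Each of the 3 is ordered alike, with HI library 2 the nearer to naive.

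The replication genes of BAM were less evenly placed. For 3 of the 13 both HI libraries were below both naive libraries, where 30.1% of all genes tested were so placed. The other 10 overlapped, and the median log2 change of the 13 was -0.19. Pcna had 51.8 and 49.8 CPM in HI and 54.1 and 56.3 CPM in naive BAM (log2 change -0.10, edgeR adjusted p = 0.317). Mcm5 had 25.6 and 24.1 CPM in HI and 24.7 and 33.8 CPM in naive BAM (log2 change -0.22, edgeR adjusted p = 0.382). Ccne1 had 1.66 and 2.85 CPM in HI and 2.42 and 3.56 CPM in naive BAM, and Ccne2 1.32 and 1.88 CPM in HI and 1.58 and 2.51 CPM in naive BAM. Neither cyclin passed, and their groups overlap. Outside the 32 genes, Lig1, which joins Okazaki fragments, fell by 0.59 (SE 0.11, edgeR adjusted p = 0.036) and Kif23, a motor of cell separation, fell by 0.45 (SE 0.09, edgeR adjusted p = 0.046). They were the only calls among 30 other replication and 47 other mitosis genes. Myc, a growth regulator, rose to 39.5 and 33.4 CPM in HI BAM, against 15.4 and 17.5 CPM in naive BAM (log2 change 1.16, SE 0.10, edgeR adjusted p = 0.0037).

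Counts in BAM depended on how the fit was made. Of the 32 genes 15 fell without the filter on low counts, 3 fell with DESeq2, and none was called with doublets kept. Without HI library 2, 12 fell, without HI library 1, 2 fell, and without naive library 1 or naive library 2 none was called. Summed markers of neurons and glia in BAM were 41.9 and 67.0 CPM in HI and 129 and 123 CPM in naive libraries, with 6 of 6 markers detected in each. Markers of choroid plexus epithelium summed to 23.4 and 21.2 CPM in HI and 35.1 and 33.6 CPM in naive BAM, with 4 to 5 of 5 detected. Markers of endothelial and mural cells summed to 129 and 108 CPM in HI and 198 and 160 CPM in naive BAM, with 6 of 6 detected. Both were lower in HI, and the part of these 2 lists in the result was not tested. Without cells that held at least 2 neuron and glia markers, Cdca3 was again the only call (edgeR adjusted p = 0.038). The median log2 change of the 32 genes was then -0.38, against -0.30 with those cells. Inside the dividing BAM, the summed mitosis genes were at 2334 and 3022 CPM in HI and 3371 and 3099 CPM in naive libraries. The summed replication genes were at 1333 and 1419 CPM in HI and 1381 and 1580 CPM in naive libraries. In other BAM the summed mitosis genes were at 130 and 131 CPM in HI and 151 and 144 CPM in naive libraries. There the summed replication genes overlapped, at 203 and 188 CPM in HI and 187 and 202 CPM in naive libraries.

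In microglia none of the 32 genes was called by edgeR, where 1.54% of all 10694 genes tested were (0.664% higher and 0.879% lower), and none was by DESeq2. An unadjusted p under 0.05 was found for 8, all higher in HI: 5 replication genes, 2 mitosis genes and H2afx. For 8 of the 13 replication genes and 4 of the 17 mitosis genes both HI libraries were above both naive libraries, where 28.3% of all genes tested were so placed. The median log2 change was 0.21 over the replication genes and 0.15 over the mitosis genes, beside 0.00 over all genes. Mcm4 had 69.2 and 87.3 CPM in HI and 58.7 and 49.1 CPM in naive microglia (log2 change 0.51, edgeR adjusted p = 0.088), and this gene was picked after its values were seen. Mcm5 had 62.7 and 81.9 CPM in HI and 55.7 and 56.3 CPM in naive microglia (log2 change 0.34, edgeR adjusted p = 0.208). Pcna had 86.9 and 82.9 CPM in HI and 77.3 and 68.2 CPM in naive microglia (log2 change 0.19, edgeR adjusted p = 0.352). HI lay above naive in each of these replication genes. Mki67 had 143 and 121 CPM in HI and 96.7 and 104 CPM in naive microglia (log2 change 0.36, edgeR adjusted p = 0.101). Top2a had 169 and 156 CPM in HI and 124 and 147 CPM in naive microglia (log2 change 0.23, edgeR adjusted p = 0.264). Ccnb1 had 70.2 and 53.6 CPM in HI and 43.6 and 61.1 CPM in naive microglia, and Ccne1 12.0 and 12.0 CPM in HI and 13.01 and 10.2 CPM in naive microglia. For both cyclins the groups overlap, as they do for Ccne2, at 8.62 and 5.74 CPM in HI and 7.58 and 4.62 CPM in naive microglia. In microglia not called dividing, the summed replication genes were at 296 and 285 CPM in HI and 246 and 246 CPM in naive libraries. Their mitosis genes overlapped, at 75.7 and 96.6 CPM in HI and 76.3 and 104 CPM in naive libraries. Inside dividing microglia, replication genes overlapped too, at 1485 and 1741 CPM in HI and 1727 and 1524 CPM in naive libraries. So did mitosis genes, at 3712 and 2814 CPM in HI and 3464 and 3866 CPM in naive libraries. No sum was tested.

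Among the wider lists in microglia, Hells, a chromatin remodeller of S phase, rose to 39.8 and 42.9 CPM in HI, against 28.4 and 23.5 CPM in naive microglia (log2 change 0.63, SE 0.13, edgeR adjusted p = 0.047). It was the only call of 30 other replication genes, and none of 47 other mitosis genes was called by edgeR, with an unadjusted p under 0.05 for 5. Myc rose by 1.18 (SE 0.09, edgeR adjusted p = 0.00061). Btg2, which restrains proliferation, fell to 35.9 and 33.5 CPM in HI, against 51.3 and 53.2 CPM in naive microglia (log2 change -0.62, SE 0.10, edgeR adjusted p = 0.021). Summed microglial markers were at 7677 and 9294 CPM in HI and 10268 and 10767 CPM in naive microglia, all 8 detected in each library, and their part in these results was not tested. Without HI library 1, 7 of the 32 genes rose, 6 of them replication genes of the MCM family, and without HI library 2, 4 rose.

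**Figure D4:**
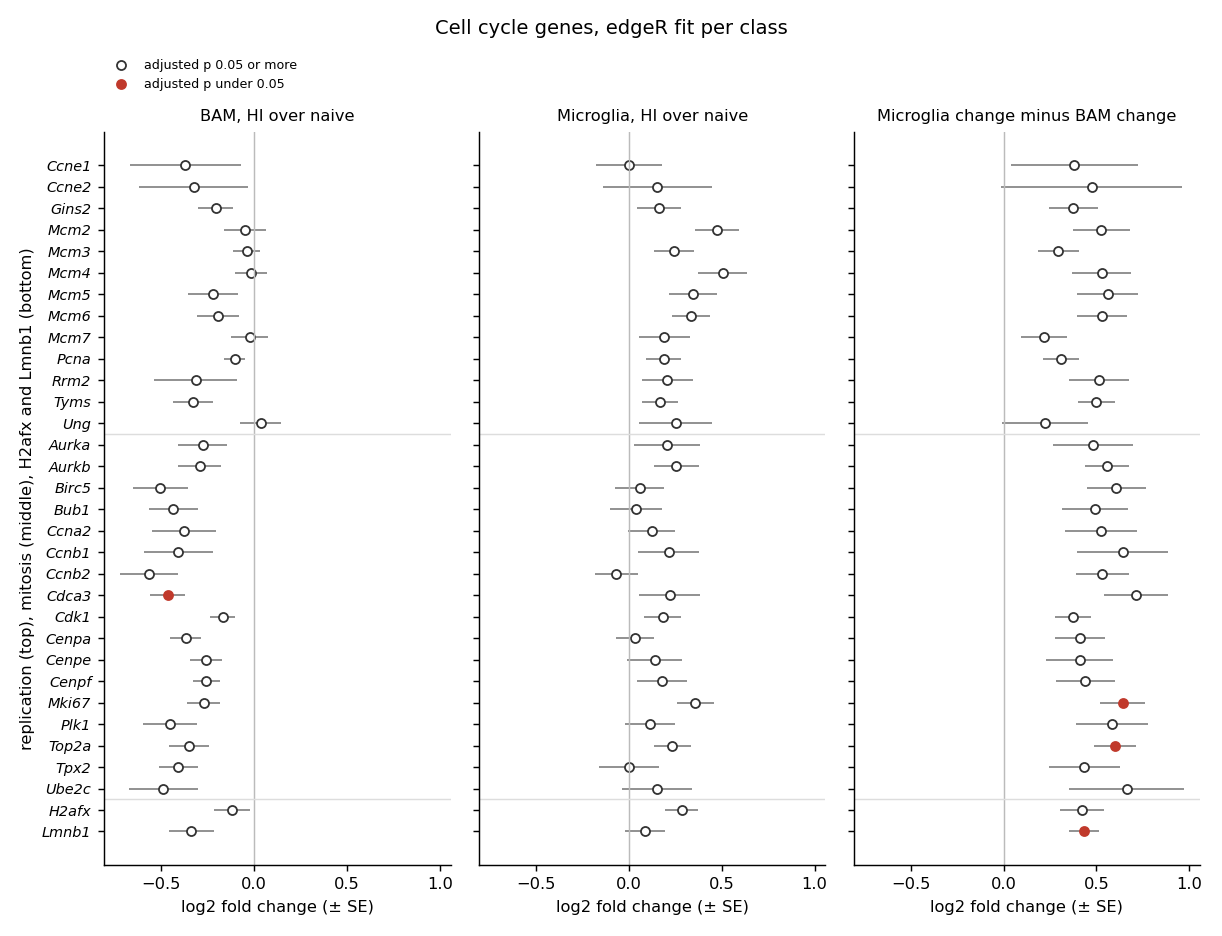
Log2 fold change with its SE (edgeR) for each of the 32 genes in BAM, in microglia, and for the microglial change minus the BAM change, on 1 shared horizontal scale. Filled points have an adjusted p under 0.05: Cdca3 in BAM, none in microglia, and Mki67, Top2a and Lmnb1 in the difference.

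Whether the HI change differed between microglia and BAM was tested directly, as an interaction of class and HI with library as a block. The difference was positive for all 32 genes in this fit, though Ccne1 and Ccne2 turned below 0 when a library was left out, and it passed for 3, where 0.926% of all 12851 genes tested did, 0.241% higher and 0.685% lower in microglia. It was 0.64 on the log2 scale for Mki67 (SE 0.12, edgeR adjusted p = 0.041), 0.60 for Top2a (SE 0.11, edgeR adjusted p = 0.036) and 0.43 for Lmnb1 (SE 0.08, edgeR adjusted p = 0.039). The median over all genes tested was 0.01 and over the 17 mitosis genes 0.53. From the wider lists Uhrf1 (0.80), Lig1 (0.66), Cdca8 (0.65) and Hmgb2 (0.47) also passed. The number of the 32 genes passed ranged from 0 without naive library 1 to 19 without HI library 2, and was 1 with DESeq2 and 22 without the filter on low counts.

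In classical monocytes 6 of the 20 genes tested rose in HI, where 0.77% of all 5712 genes tested rose and 0.385% fell, and 12 of the 32 were too low to test. Top2a had 70.4 and 61.2 CPM in HI libraries (37 and 58 UMIs), against 0 and 3.79 CPM in naive libraries (0 and 2 UMIs). Its level over the class was 35.2 times higher in HI (95% counting interval 9.47 to 295), with edgeR adjusted p = 0.0061. Cdk1 had 43.7 and 42.2 CPM in HI and 5.32 and 1.89 CPM in naive libraries (log2 change 3.45, edgeR adjusted p = 0.014). Cdk1 rests on 23 and 40 UMIs in HI and 3 and 1 UMIs in naive libraries. Ccna2 had 49.4 and 62.2 CPM in HI and 3.55 and 7.57 CPM in naive libraries (log2 change 3.29, edgeR adjusted p = 0.010). Cdca3 rose to 49.4 and 34.8 CPM in HI, against 5.32 and 3.79 CPM in naive libraries (log2 change 3.07, edgeR adjusted p = 0.023). H2afx rose to 207 and 134 CPM in HI, against 17.7 and 32.2 CPM in naive libraries (log2 change 2.71, edgeR adjusted p = 0.0070). Lmnb1 rose to 205 and 124 CPM in HI, against 58.6 and 45.4 CPM in naive libraries (log2 change 1.59, edgeR adjusted p = 0.033). The groups overlap for none of these 6 genes. The 6 replication genes that could be tested were none of them called by edgeR or DESeq2, with an unadjusted p under 0.05 for 2. Pcna had 49.4 and 49.6 CPM in HI and 40.8 and 41.7 CPM in naive libraries (log2 change 0.23, edgeR adjusted p = 0.759). Mki67 had 43.7 and 33.7 CPM in HI and 1.77 and 13.3 CPM in naive libraries (log2 change 2.30, edgeR adjusted p = 0.096). Ccnb1 had 41.8 and 28.5 CPM in HI and 3.55 and 7.57 CPM in naive libraries (log2 change 2.55, edgeR adjusted p = 0.056). Mcm5 had 11.4 and 24.3 CPM in HI and 3.55 and 20.8 CPM in naive libraries, and here the groups overlap. The E cyclins were too low to test, with Ccne1 at 0 and 1 UMI in HI and 2 and 2 UMIs in naive libraries, and Ccne2 at 0 and 2 UMIs in HI and 0 and 2 UMIs in naive libraries. For 16 of the 17 mitosis genes and 4 of the 13 replication genes both HI libraries were above both naive libraries, where 25.5% of all genes tested were so placed. For 2 of the replication genes both HI libraries were below both naive libraries, where 20.2% of all genes tested were. The counts of the 17 and 13 include genes too low to test, which the shares of all genes tested leave out, so the 2 are not fully alike.

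These values rest on 45 and 98 HI cells and 55 and 60 naive cells, and on 14 mitotic cells in HI and 3 in naive libraries. In classical monocytes not called dividing, the summed mitosis genes were at 89.6 and 53.6 CPM in HI and 130 and 82.6 CPM in naive libraries. In the dividing ones they were at 3734 and 4830 CPM in HI (7 cells in each library) and 2054 CPM in naive library 2 (4 cells), and naive library 1 had none. The number of genes that rose was 18 without the filter on low counts and 5 with DESeq2, which lost Cdca3. It was 6 with doublets kept, which lost Cdca3 and Lmnb1 and gained Ube2c and Ccnb1. The median log2 change of the genes tested was 1.64 without HI library 1 and 1.99 without HI library 2. It was 1.54 without naive library 1 and 2.88 without naive library 2, against 1.58 with all libraries. Markers of other cells differed in the same gate: summed mature neutrophil markers were 13047 and 6264 CPM in HI and 3498 and 5071 CPM in naive libraries, and summed immature neutrophil markers 456 and 292 CPM in HI and 106 and 214 CPM in naive libraries. In each library 6 to 7 of the 8 mature and 5 to 6 of the 9 immature neutrophil markers were detected. Summed BAM markers were 896 and 801 CPM in HI and 611 and 356 CPM in naive libraries, with 6 to 8 of 8 detected. The 7 markers of classical monocytes themselves, all detected, summed to 6378 and 7557 CPM in HI and 8092 and 8877 CPM in naive libraries, so in HI library 1 the mature neutrophil markers summed to more than the markers of the class. The part of these lists in the result was not tested. In non-classical monocytes 8 of the 32 genes could be tested and none was called by edgeR, where 1.61% of all 7812 genes tested were (0.794% higher and 0.819% lower), nor by DESeq2. H2afx and Lmnb1 had an unadjusted p under 0.05, both higher in HI. Pcna had 59.7 and 49.4 CPM in HI and 72.5 and 54.6 CPM in naive libraries (log2 change -0.25, edgeR adjusted p = 0.731), and Mcm5 had 12.98 and 9.04 CPM in HI and 10.4 and 6.77 CPM in naive libraries, with groups that overlap for both. Top2a had 2 and 2 UMIs in HI and 7 and 8 UMIs in naive libraries, Ccnb1 0 and 1 UMI in HI and 1 and 0 UMIs in naive libraries, and Ccne1 1 and 1 UMI in HI and 3 and 1 UMIs in naive libraries. Ccne2 had 0 UMIs in the class. Their G1 cyclin Ccnd2 rose to 189 and 272 CPM in HI, against 110 and 121 CPM in naive libraries (log2 change 1.01, edgeR adjusted p = 0.00018). Cdkn2d, a CDK inhibitor, rose to 154 and 174 CPM in HI, against 108 and 94.7 CPM in naive libraries (log2 change 0.70, edgeR adjusted p = 0.0044). Mature neutrophil markers in this class summed to 715 and 1628 CPM in HI and 346 and 536 CPM in naive libraries, and their part was not tested.

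Dividing BAM differed from other BAM of the same libraries in genes that did not choose them. There were 327 and 521 dividing BAM in HI and 390 and 577 in naive libraries, with medians of 11663 to 14343 UMIs, against 9652 to 10892 UMIs in other BAM. Of 25 genes of macrophage states 18 were lower and 1 was higher in dividing BAM, where 50.3% of all 12035 genes tested were called, 25.1% lower and 25.2% higher, and the median log2 difference of the 25 was -0.43, beside -0.03 over all genes. Genes of MHC class II, which presents antigen, differed most. H2-Eb1 had 2.84 and 0 CPM in dividing and 19.8 and 13.03 CPM in other HI BAM, and 1.78 and 0.79 CPM in dividing and 26.3 and 14.6 CPM in other naive BAM. It was lower in dividing BAM of every library, by 3.91 on the log2 scale (SE 0.23, edgeR adjusted p = 1.64e-11). The dividing cells held only 14 and 0 UMIs of H2-Eb1 in HI and 10 and 6 UMIs in naive libraries, so the size is rough. H2-Aa differed by -3.87 and H2-Ab1 by -3.35 (SE 0.24 and 0.25, edgeR adjusted p = 5.41e-11 and 8.16e-10). In dividing BAM H2-Aa had 25 and 2 UMIs in HI and 11 and 4 UMIs in naive libraries. H2-Ab1 had 6 and 15 UMIs in HI and 15 and 1 UMIs in naive libraries there. The invariant chain gene Cd74 had 90.8 ± 27.8 CPM in dividing and 181 ± 26.7 CPM in other BAM (SD, n = 4 libraries), a log2 difference of -1.06 (edgeR adjusted p = 8.9e-10).

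Ccl8, a chemokine, differed by -1.26, Hmox1, which degrades haem, by -0.69, Ifit3, an interferon-induced gene, by -0.68, and Igf1, a growth factor, by -0.63, all with edgeR adjusted p under 0.05. Lyve1, the hyaluronan receptor of a resident subset, was 2537 ± 237 CPM in dividing and 2352 ± 94.2 CPM in other BAM (log2 difference 0.07, edgeR adjusted p = 0.046), a call lost with DESeq2 (adjusted p = 0.119). The cells were chosen by cell cycle genes, so levels of related genes are given with no test. Myc was at 46.8 ± 19.95 CPM in dividing and 23.0 ± 10.9 CPM in other BAM, and Ccnd1 at 318 ± 20.8 and 227 ± 6.02 CPM. Ccnd1 was higher in dividing BAM in each library, as was the inhibitor Cdkn2c, at 91.1 ± 25.1 CPM against 17.4 ± 2.04 CPM.

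**Figure D5:**
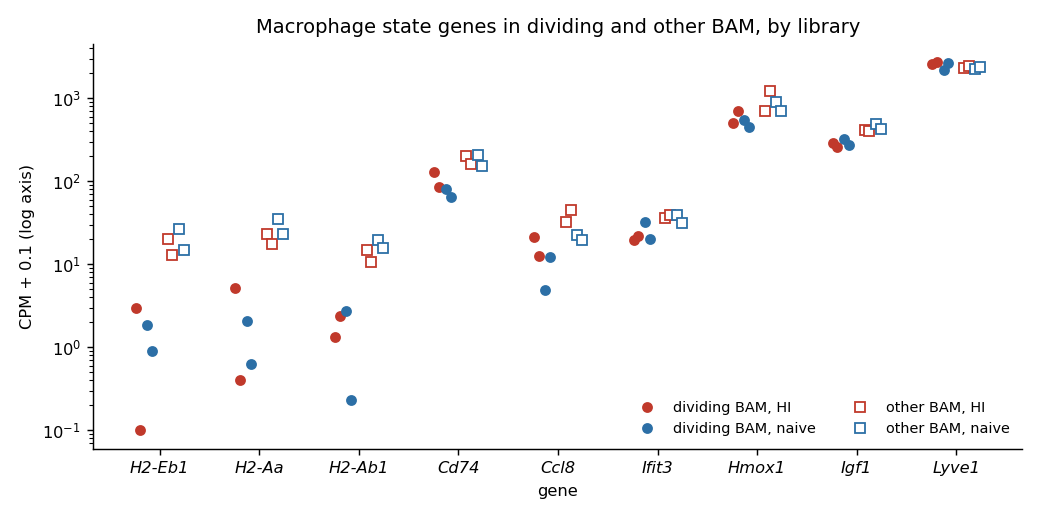
CPM + 0.1 on a log axis for 9 macrophage state genes in dividing (circles, left) and other (squares, right) BAM of each library, HI in red and naive in blue. The MHC class II genes are lower in dividing BAM of every library, and Lyve1 lies between 2192 and 2714 CPM in all 8 groups of cells.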

How the data were processed

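Pooled meningeal leukocytes were profiled on the 10x Genomics 5′ platform, per the labels' protocols, and gene and receptor libraries were made. The deposited matrices hold UMI counts per gene and cell, not normalized, for which the submitters' processing notes name Cell Ranger 2.2.0 and mm10; receptor contig tables (read and UMI counts deposited by the authors) were used only to find cells with productive chains. The cells of each library came from 12 pooled mice, and the 2 libraries of a group are the replicates. In tests of HI against naive within a class, p-values rest on the spread between these pools. Fits between classes, of the interaction and of dividing against other BAM had library as a block. Their p-values rest on how the difference inside a library varies between libraries. In all of these tests edgeR moderates the spread over genes, or over classes for shares. Cells needed 200 detected genes and no more than 10% of UMIs from mitochondria. Doublet scores came from scrublet in scanpy 1.11.5; its automatic thresholds marked 3, 1, 1 and 1 cells and had not worked, so the highest scores were removed at 0.8% per 1000 barcodes. A class needed at least 50% of its markers detected. It also needed a gap of 10 percentage points to the next list, or 20 between BAM and microglia. Pre-B cells, gamma-delta T cells and immature neutrophils were exceptions. They needed no gap, and took cells from other classes of their lineage when the best list of the cell reached 50%. Pre-B cells needed only 3 of their 7 markers, which is under 50%. Clusters made without cell cycle genes gave the same name to 98.2% of the 18820 cells named by both. Gates and clusters gave 129 and 43 conventional dendritic cells, 48 and 74 pre-B cells, and 158 and 261 mature neutrophils. B cells were closer, at 210 and 200, and no cluster was named immature neutrophils. Counts were summed per library and class and fitted with edgeR 4.0.16 (filterByExpr, TMM, quasi-likelihood, threshold 0.05), which was tested on simulated data. Dividing cell counts were fitted with the number of cells of the class as offset. DESeq2 1.42.0, other normalization, filters, classes, calls and leaving out each library were alternatives. The split of microglia by cluster and the printed promoters were chosen after seeing the data. Members and lists were chosen with earlier results of these data known. Per-library values are given for members past 0.05 in a class, up to 6 of each group by size of change, and always for Mki67, Top2a, Ccnb1, Pcna, Mcm5, Ccne1 and Ccne2; of wider lists up to 4 genes, and of state genes up to 8, past 0.05 in each direction. Library depths were 51986763 and 68543046 UMIs in HI and 62062630 and 65759672 UMIs in naive libraries.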

Additional observations from a re-analysis of the deposited data

Results flagged for a closer look

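The HI change of 3 genes differed between microglia and BAM in a direct test of that difference, and each stands out for this reason. The microglial change minus the BAM change was 0.64 on the log2 scale for Mki67, 0.60 for Top2a and 0.43 for Lmnb1, with edgeR adjusted p = 0.041, 0.036 and 0.039. None of the 3 was called within either class by edgeR. Without naive library 1 or without naive library 2 all 3 lost the call, with adjusted p between 0.218 and 0.346. Groups of 2 libraries are too small to look for a library that stands apart by its value.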

How the results depend on the processing

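Of 211 values of shares and counts under the alternatives 161 kept their direction and call or stayed within 1.5 times, among them the 32 genes higher in microglia than in BAM under each alternative run. The dividing share of microglia passed with at least 2 genes per call (log2 change 0.35) and with all UMIs (0.24), as did their replicating share (0.41 and 0.25). The mitotic share of BAM passed with classes from clusters (-0.43) and with all UMIs (-0.39). Leaving out 1 library gave log2 changes of -0.31 to 0.15 for the replicating share of BAM, passing without naive library 1 and turning above 0 without naive library 2. The 7 dividing non-classical monocytes are too few for a direction: their dividing share changed by -0.54 with doublets kept, -0.13 with classes from clusters and -0.069 to 0.46 with a library left out, and their replicating share by -0.54, -0.13 and -0.069 to 0.46. The replicating share of classical monocytes changed by 0.043 with doublets kept, 0.58 with at least 4 genes per call, 0.62 with all UMIs and -3.07 to 3.06 with a library left out. The number of the 32 genes called in BAM was 3 with DESeq2, 2 with classes from clusters, 0 with doublets kept, 15 with no filter on low counts and 0 to 12 with a library left out. In microglia it was 5 with no filter and 0 to 7 with a library left out. In classical monocytes it was 18 with no filter and 6 to 14 with a library left out. For the interaction it was 1 with DESeq2, 5 with doublets kept, 22 with no filter and 0 to 19 with a library left out. State genes higher in dividing BAM numbered 0 with DESeq2, with doublets kept or with no filter, and 0 to 2 with a library left out. The causes were not tested.

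With the replicate number as a block 16 genes were called in BAM, 1 in microglia and 12 in classical monocytes, and no test of a share changed its call. The labels do not say that a number marks a run, and deviations of same-numbered libraries correlated at 0.12 in BAM, 0.18 in microglia, 0.12 in classical and 0.065 in non-classical monocytes.

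Of single genes 86 values lost and 28 gained the call, 23 turned their sign, none of them a called one, and 1444 kept both. With a library left out the BAM change ranged from -0.43 to 0.028 for Mcm5 and from -0.64 to 0.056 for Ccne2. The microglial change ranged from -0.022 to 0.47 for Ccnb1, from -0.14 to 0.20 for Ccne1 and from -0.14 to 0.58 for Ccne2. That of Mcm5 in classical monocytes ranged from -0.17 to 2.33. The interaction ranged from -0.060 to 0.85 for Ccne1 and from -0.17 to 1.21 for Ccne2. For classical monocytes over BAM the range was -0.77 to 0.32 for Top2a, -0.78 to 0.0046 for Ccne1 and -0.76 to 0.13 for Ccne2. With doublets kept, that difference was 0.056 for Top2a, 0.0065 for Pcna and 0.56 for Ccne2, the HI change of Mcm5 in non-classical monocytes was -0.35, and that of Ccne1 in microglia was -0.014, and -0.0035 at 5% mitochondrial UMIs. BAM without cells that held neural RNA was added after seeing the data. Clusters gave no classical monocyte class, so that alternative was not run for it.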
